A study of Mus musculus with 21 samples.

Results

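The NRF2 antioxidant response genes described here are 10 genes chosen by symbol: Nfe2l2, Keap1, Nqo1, Hmox1, Gclc, Gclm, Slc7a11, Srxn1, Txnrd1 and G6pdx. All 10 had a row in the deposited table of 20900 genes, and all 10 were among the 14666 genes with enough signal to be tested. They were measured by RNA-seq of poly(A) RNA in E14 mouse embryonic stem cells, a line of the 129 strain. The study asked how expression changed when RNA polymerase I, which makes the large ribosomal RNA precursor, was inhibited. The 7 groups were untreated cells at 0 h, cells after 2, 4 and 8 h with 1 µM BMH-21, and cells after 2, 4 and 8 h with 1 µM CX-5461, with 3 libraries each and 21 in all. BMH-21 and CX-5461 are small-molecule inhibitors of RNA polymerase I.

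All 7 groups shared a medium with fetal bovine serum, leukaemia inhibitory factor and 2-mercaptoethanol, a reducing agent. The inhibitors were given in fresh medium on the day after plating. Whether the 0 h cells also received fresh medium, and whether a vehicle was added, is not given in the sources used here. The same 3 libraries at 0 h were the control of both inhibitors at every time, so the comparisons with control are not independent of each other. The labels number the replicates without saying that they were separate cultures, so the p-values measure only the spread between these libraries, which may be technical.

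NRF2, the product of Nfe2l2, is a transcription factor that binds antioxidant response elements together with a small MAF protein. In unstressed cells KEAP1 holds NRF2 and delivers it to a CUL3 ubiquitin ligase for destruction. Oxidants and electrophiles modify KEAP1, and NRF2 then accumulates and activates genes for quinone and heme metabolism, glutathione synthesis, the thioredoxin system and NADPH supply. This control acts mostly on the NRF2 protein, which RNA-seq does not measure. Several of these genes also answer to other factors, among them ATF4 (Slc7a11), the aryl hydrocarbon receptor AHR (Nqo1, Nfe2l2) and AP-1.

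Promoter sequence from RefSeq on GRCm38.p6, covering 250 bases before to 50 bases after the start of transcription, was matched for 8 of the 10 genes. Hmox1 and Gclc had no entry. Both strands were searched for the antioxidant response element core TGACNNNGC, the AHR core GCGTG, the CEBP-ATF element TGATGNAAN and the AP-1 core TGANTCA, the last of which was added after the sequences had been seen. The AP-1 core can lie inside an antioxidant response element. The antioxidant core was found before the start of Nfe2l2, Gclm, G6pdx and 1 of the Txnrd1 promoters, and after the start of Srxn1. The CEBP-ATF element was found in Slc7a11 alone of the 8 genes, and the AP-1 core in Srxn1 alone. The AHR core was found in Keap1, Gclm, Srxn1, Txnrd1 and G6pdx, and its letters were not in the windows of Nfe2l2, Nqo1 and Slc7a11. Over all 32851 promoters of that table, 12.4% held the antioxidant core, 32.4% the AHR core, 3.95% the CEBP-ATF element and 7.81% the AP-1 core. Such matches describe letters and are not shown to be bound.
The 3 stretches below are examples, 1 each for the antioxidant core, the CEBP-ATF element and the AP-1 core before the start. The other promoters with matches are not printed. Each is 240 bases, 5′ to 3′ on the gene's strand, and capitals mark the matches, other than those to the AHR core. They lie at chr2:75704674-75704913 (Nfe2l2, minus strand), chr3:50443624-50443863 (Slc7a11, minus strand) and chr2:152105274-152105513 (Srxn1, plus strand).
Nfe2l2: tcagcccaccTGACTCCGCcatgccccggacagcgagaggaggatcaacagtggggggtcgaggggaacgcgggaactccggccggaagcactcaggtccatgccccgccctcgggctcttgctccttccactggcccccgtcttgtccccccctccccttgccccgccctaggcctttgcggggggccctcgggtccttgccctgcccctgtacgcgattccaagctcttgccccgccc
Slc7a11: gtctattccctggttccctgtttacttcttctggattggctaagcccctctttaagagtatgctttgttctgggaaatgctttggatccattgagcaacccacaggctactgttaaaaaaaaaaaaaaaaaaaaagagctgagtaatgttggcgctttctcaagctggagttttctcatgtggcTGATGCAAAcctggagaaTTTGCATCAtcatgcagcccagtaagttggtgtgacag
Srxn1: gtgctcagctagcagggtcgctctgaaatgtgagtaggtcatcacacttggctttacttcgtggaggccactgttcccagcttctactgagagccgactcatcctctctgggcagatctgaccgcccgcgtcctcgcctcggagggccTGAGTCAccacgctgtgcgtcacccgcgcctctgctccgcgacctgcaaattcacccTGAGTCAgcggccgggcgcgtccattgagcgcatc
The Nfe2l2 match TGACTCCGC starts at position -240 from the start of transcription. In Slc7a11 the element stands on both strands, with TGATGCAAA at -66 and TTTGCATCA at -48. In Srxn1 the letters TGAGTCA occur at -102 and at -45. Those at -45 are followed by gc, and so differ from the searched antioxidant core only by G in place of C.

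The libraries held 46604397 to 62812641 reads over the genes of the table, and each member had at least 1160 reads in every library. Values are log2 CPM (reads scaled to a common library size), computed on a library total that the authors multiplied by a factor, from 0.832 to 1.375 between libraries. On that scale the median of all genes tested moved against the control by -0.07, -0.21 and -0.40 at 2, 4 and 8 h of BMH-21, and by -0.18, -0.28 and 0.11 after the same times of CX-5461. Values are therefore given as deposited and also with each library centred on the median of its expressed genes, where these medians lay between -0.16 and 0.01. The members' own SD within groups was 0.11 to 0.15 as deposited and 0.04 to 0.08 after centring. In what follows a gene rose or fell where limma's adjusted p, over all 14666 genes, was under 0.05, and the scale is named. The stem cell markers (9 genes such as Pou5f1) were present in every library, and their summed level went from between 6117 and 7049 CPM in the control to between 2483 and 2631 after 8 h of BMH-21. In the CX-5461 groups it spanned 3430 to 4083 at 4 h, and 4858 to 5242 at 8 h. As deposited, 9 of 9 were called lower at 4 h and at 8 h of BMH-21 and at 4 h of CX-5461, and 7 of 9 at 8 h of CX-5461. The shares of all genes called lower were 44.9%, 56.9%, 51.2% and 14.3%, in the same order. After centring the counts were 7, 9, 9 and 8 of 9, against 39.9%, 49.6%, 44.1% and 42.2% of all genes. Sums over markers of other cell types also varied between groups. The 4 of trophectoderm summed to between 6.94 and 8.53 CPM in the control and between 14.3 and 16.2 after 8 h of CX-5461, where all 3 tested were called higher. The 6 fibroblast markers summed to between 33.5 and 37.8 in the control, between 46.2 and 56.2 after 4 h of BMH-21 and between 49.7 and 49.8 after 8 h of CX-5461, where 3 of the 4 tested were called higher. Of all genes, 35.1% were called higher after 8 h of CX-5461 as deposited. The 5 of primitive endoderm summed to between 12.8 and 16.3 in the control and between 9.35 and 11.2 after 8 h of BMH-21. No marker was at 0 reads in every library of a group, and Col3a1, Postn, Foxa2 and Elf5 were below the filter. The part of these shifts in the results below was not tested, and in bulk RNA fewer cells of a type and less RNA per cell cannot be told apart.

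In the control, expression per kilobase of exon placed Hmox1 first at 6.14 ± 0.11 (SD, n = 3) on the log2 scale, followed by Txnrd1 at 5.59 ± 0.08 and G6pdx at 5.29 ± 0.07. Nqo1 (4.31) and Gclc (4.30) differed by less than their SD between libraries, and so did Gclm (3.90) and Nfe2l2 (3.84). The genes were not paired within libraries here. Srxn1 followed at 3.69, Slc7a11 at 3.10 and Keap1 at 2.56. Exon lengths were taken from GENCODE M21 on GRCm38, the assembly that mm10 in the submitters' processing notes refers to, and they count every annotated exon once.

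How many of the 10 genes changed depended on the scale. After 2 h of BMH-21, 3 rose and 0 fell as deposited, where 8.48% of all genes tested rose and 11.2% fell, and 7 rose and 0 fell after centring, against 19% and 16.8%. After 4 h of BMH-21, 4 rose and 3 fell as deposited, against 22.1% and 44.9% of all genes, and 7 rose and 2 fell after centring, against 33.4% and 39.9%. After 8 h of BMH-21, 2 rose and 3 fell as deposited, against 24.5% and 56.9%, and 7 rose and 3 fell after centring, against 34.2% and 49.6%. As deposited, the share of the 10 that fell was below the background at all 3 times, and the share that rose was below it at 8 h.

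Under CX-5461 for 2 h, 0 of the 10 changed as deposited, against 7.45% of all genes that rose and 20.5% that fell, by limma. The same count was 0 of 10 with voom weights on the recovered reads, and 1 of the 10 (Gclc) had an unadjusted p under 0.05 as deposited. After centring 7 rose and 0 fell, against 16.2% and 16.7%. After 4 h, 2 rose and 3 fell as deposited, against 19.8% and 51.2%, so that the share that rose was near the background. After centring 6 rose and 2 fell at 4 h, against 29.2% and 44.1%. After 8 h, 7 rose and 0 fell as deposited, against 35.1% and 14.3%, and 7 rose and 2 fell after centring, against 30.7% and 42.2%. After centring, the share of the 10 that rose lay above the share of all genes in each of the 6 comparisons with control, and the share that fell lay below it.

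**Figure D1:**
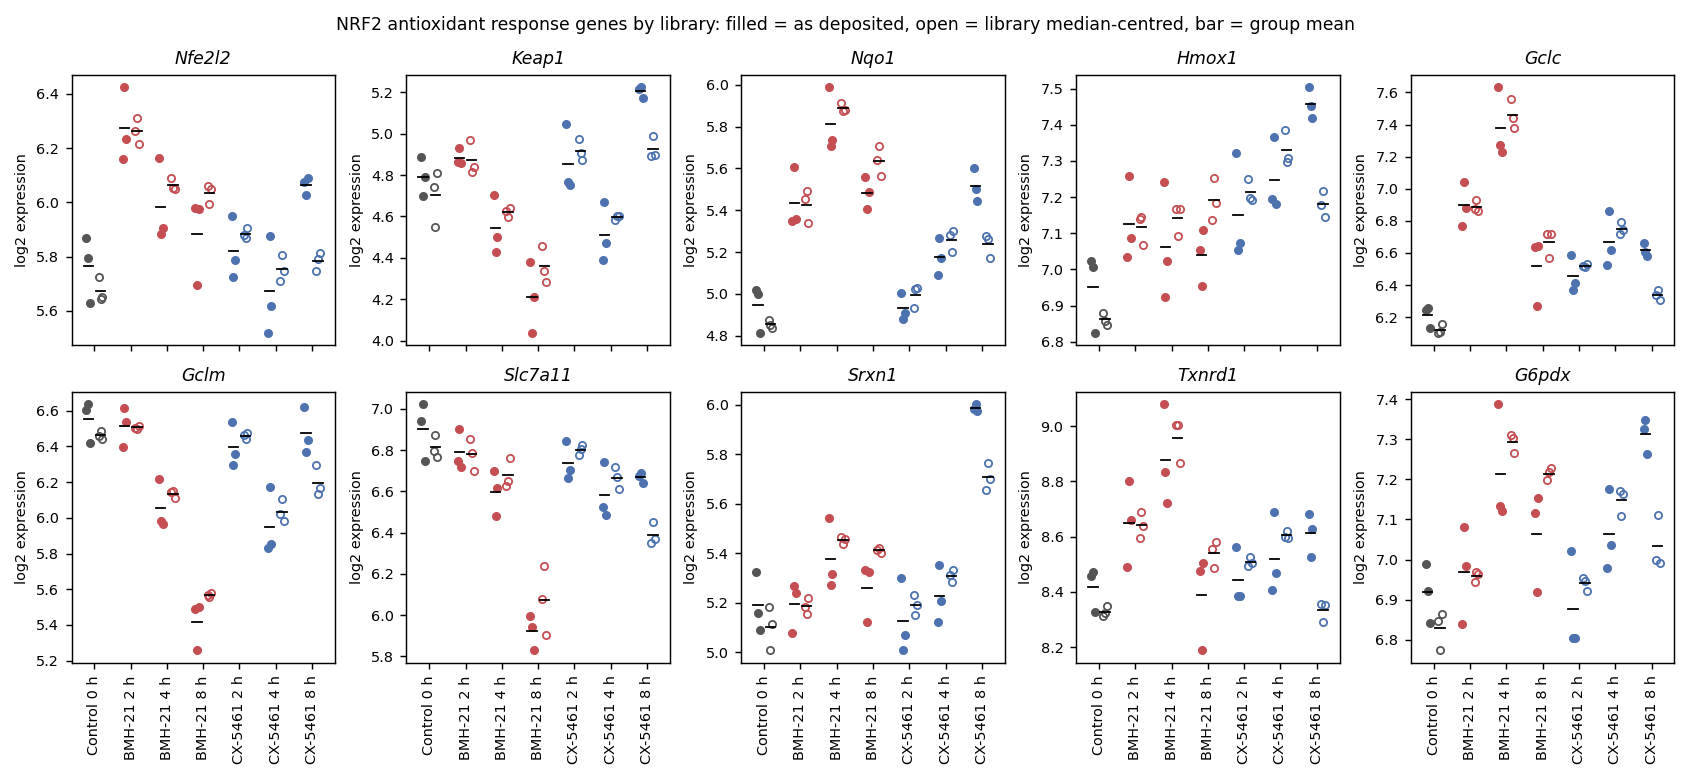
log2 expression (y axis) of each of the 10 genes in each of the 7 groups (x axis), 3 libraries a group, with filled points as deposited, open points after centring each library on its median, and bars at group means. Gclc and Nqo1 peak after 4 h of BMH-21, Nfe2l2 after 2 h, Gclm and Slc7a11 are lowest after 8 h of BMH-21, and Srxn1 is highest after 8 h of CX-5461. The y axes differ between genes and do not start at 0.

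Nfe2l2 and Keap1 encode the transcription factor and the protein that restrains it. Nfe2l2 (chr2:75675513-75704641, minus strand, 6 exonic blocks) rose within 2 h of BMH-21 and was nearer to the control at 4 and 8 h. Its deposited log2 values were 5.87, 5.79 and 5.63 in the control and 6.16, 6.43 and 6.23 after 2 h of BMH-21. They were 6.16, 5.88 and 5.91 after 4 h and 5.98, 5.70 and 5.97 after 8 h of BMH-21. Under CX-5461 they were 5.95, 5.73 and 5.79 at 2 h, 5.52, 5.88 and 5.62 at 4 h, and 6.07, 6.03 and 6.09 at 8 h. All 3 libraries at 2 and at 4 h of BMH-21 lay above the control, while the other groups overlapped it, except CX-5461 at 8 h. The rise at 2 h of BMH-21 was 0.51 ± 0.11 (log2 fold change ± SE, adjusted p = 0.00015 by limma), a fold of 1.42. As deposited, the change was 0.22 at 4 h (adjusted p = 0.07) and 0.12 at 8 h (adjusted p = 0.31). After centring, Nfe2l2 rose at all 3 times of BMH-21, by 0.59, 0.39 and 0.36 ± 0.04 (SE), and after CX-5461 it rose by 0.21 at 2 h and 0.11 at 8 h, with 0.08 at 4 h not called (adjusted p = 0.058). As deposited, the rise after 8 h of CX-5461 was 0.30 ± 0.11 (adjusted p = 0.018). It was lost without control replicate 3 (0.23) or CX-5461 8 h replicate 3 (0.29), and on the centred scale without control replicate 2 (0.10) or CX-5461 8 h replicate 3 (0.09). The 4 h CX-5461 value turned from -0.09 as deposited to 0.08 after centring, where it was called without control replicate 1 (0.11) or CX-5461 4 h replicate 1 (0.10).

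Keap1 (chr9:21229730-21239361, minus strand) went opposite ways with the 2 inhibitors at 8 h. On the deposited scale its log2 values were 4.89, 4.70 and 4.79 in the control, 4.38, 4.04 and 4.21 after 8 h of BMH-21, and 5.22, 5.23 and 5.17 after 8 h of CX-5461. The 3 groups did not overlap. Keap1 fell by 0.58 ± 0.11 (SE) after 8 h of BMH-21 (adjusted p = 1.5e-06) and rose by 0.41 ± 0.11 after 8 h of CX-5461 (adjusted p = 0.0011), both by limma. After centring these changes were -0.34 and 0.22, both still called, and 0.15 for CX-5461 without control replicate 2. At 2 h Keap1 was 0.09 above the control under BMH-21 and 0.06 above it under CX-5461 as deposited, not called. After centring it rose by 0.17 and 0.22 at that time, calls that were lost without control replicate 2 (0.10 and 0.14) and, for BMH-21, without BMH-21 2 h replicate 1 (0.13). At 4 h it fell as deposited, by 0.25 under BMH-21 and 0.28 under CX-5461, and neither was called after centring (-0.08 and -0.11), unless control replicate 2 was left out (-0.16 and -0.18). The deposited call at 4 h of BMH-21 was also lost without control replicate 1 (-0.20) or 3 (-0.25) or BMH-21 4 h replicate 2 (-0.19) or 3 (-0.23). That at 4 h of CX-5461 was lost without control replicate 1 (-0.23) or CX-5461 4 h replicate 1 (-0.22) or 3 (-0.26). Keap1 shares 510 exonic bases with the antisense gene Gm16754, and the counting strand is not given in the sources used here, so reads of these genes cannot be told apart.

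Nqo1 (chr8:107388225-107403206, minus strand), which reduces quinones and is a classic NRF2 and AHR target, rose with both inhibitors and earlier under BMH-21. As deposited, its log2 values were 5.02, 5.00 and 4.81 in the control, and 5.35, 5.60 and 5.36, then 5.99, 5.71 and 5.73, then 5.56, 5.41 and 5.49 after 2, 4 and 8 h of BMH-21. Under CX-5461 they were 5.00, 4.88 and 4.91 at 2 h, 5.09, 5.27 and 5.17 at 4 h, and 5.60, 5.50 and 5.44 at 8 h. No BMH-21 library overlapped the control at any time, and CX-5461 overlapped it at 2 h only. The rises under BMH-21 were 0.49, 0.86 and 0.54 ± 0.11 (SE), with adjusted p of 0.00023, 6.8e-12 and 4.6e-06 by limma, which are folds of 1.41, 1.82 and 1.45. Under CX-5461 the 8 h rise of 0.57 was called (adjusted p = 3.7e-06), and 0.23 at 4 h was not (adjusted p = 0.051), except without CX-5461 4 h replicate 1 (0.27). After centring, Nqo1 rose by 0.57, 1.03 and 0.78 ± 0.05 under BMH-21 and by 0.40 and 0.38 at 4 and 8 h of CX-5461. At 2 h of CX-5461 the centred rise was 0.14, where the deposited value was -0.01, and its call was lost without control replicate 2 (0.14) or 3 (0.13) or CX-5461 2 h replicate 2 (0.13) or 3 (0.12). In order of centred level, BMH-21 at 4 h (5.89 ± 0.02, SD) stood above BMH-21 at 8 h (5.64 ± 0.07) and 2 h (5.43 ± 0.08), and the 4 h and 8 h groups of CX-5461 (5.26 ± 0.05 and 5.24 ± 0.06) did not differ beyond their spread.

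Hmox1 (chr8:75093621-75100589, plus strand), which degrades heme and is induced by many stresses, rose by at most 0.51 on either scale. Its deposited log2 values were 7.02, 7.01 and 6.82 in the control, 7.24, 6.92 and 7.02 after 4 h of BMH-21, and 7.51, 7.45 and 7.42 after 8 h of CX-5461. The first 2 of these groups overlapped, and the last stood above both. Under BMH-21 the changes were 0.17, 0.11 and 0.09 after 2, 4 and 8 h as deposited, none called, and 0.26, 0.28 and 0.33 ± 0.04 (SE) after centring, all called. Under CX-5461, Hmox1 rose by 0.30 at 4 h (adjusted p = 0.0097) and by 0.51 at 8 h (adjusted p = 1.96e-05) as deposited, by limma. The 4 h call was lost without control replicate 3 (0.23) or CX-5461 4 h replicate 2 (0.24). After centring it rose by 0.35, 0.47 and 0.32 at 2, 4 and 8 h of CX-5461.

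Glutathione is made from glutamate, cysteine and glycine. Its first and rate-limiting enzyme, glutamate-cysteine ligase, has a catalytic subunit encoded by Gclc and a modifier subunit encoded by Gclm, and Slc7a11 encodes the cystine transporter of the xCT system that supplies the cysteine. These genes moved apart. Gclc rose with both inhibitors, and Gclm and Slc7a11 fell.

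As deposited, Gclc (chr9:77754535-77794485, plus strand) had log2 values of 6.25, 6.26 and 6.13 in the control, 6.77, 7.05 and 6.88 after 2 h, 7.64, 7.27 and 7.23 after 4 h, and 6.64, 6.27 and 6.65 after 8 h of BMH-21. Under CX-5461 they were 6.59, 6.37 and 6.41, then 6.53, 6.86 and 6.62, then 6.66, 6.61 and 6.58. All 18 libraries of treated cells lay above all 3 of the control. The 4 h rise under BMH-21 was 1.17 ± 0.11 (SE), a fold of 2.25 (adjusted p = 3.6e-18 by limma), and 1.34 ± 0.04 after centring. The rise was 0.69 at 2 h and 0.30 at 8 h of BMH-21, the latter (adjusted p = 0.0087) lost without BMH-21 8 h replicate 1 (0.24) or 3 (0.24). Under CX-5461 Gclc rose by 0.46 at 4 h and 0.41 at 8 h, and 0.25 at 2 h was not called (adjusted p = 0.08). After centring it rose by 0.77 and 0.55 at 2 and 8 h of BMH-21 and by 0.40, 0.63 and 0.22 at 2, 4 and 8 h of CX-5461.

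Gclm (chr3:122245557-122270732, plus strand) was not called at 2 h and fell later. On the deposited scale its log2 values were 6.60, 6.64 and 6.42 in the control, 6.40, 6.61 and 6.54 after 2 h, 6.22, 5.98 and 5.97 after 4 h, and 5.49, 5.26 and 5.50 after 8 h of BMH-21. Under CX-5461 they were 6.54, 6.30 and 6.36, then 5.83, 6.17 and 5.85, then 6.62, 6.37 and 6.44. Gclm lay below every control library at 4 and 8 h of BMH-21 and at 4 h of CX-5461. It fell by 0.50 and 1.14 ± 0.11 (SE) at 4 and 8 h of BMH-21 (adjusted p = 3.5e-05 and 7.4e-18 by limma) and by 0.60 at 4 h of CX-5461 (adjusted p = 7.8e-07). After centring it fell by 0.33 and 0.90 under BMH-21 and by 0.43 and 0.27 at 4 and 8 h of CX-5461, of which the last was not called as deposited (-0.08). At 2 h its change was -0.04 under BMH-21 and -0.16 under CX-5461 as deposited, and 0.04 and -0.003 after centring, none called. Gclm shares 244 exonic bases with the pseudogene Gm6061 on the same strand and 296 with Gm17494 on the other, neither of which was analysed here.

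Slc7a11 (chr3:49892526-50443614, minus strand) fell late. As deposited, its log2 values were 6.94, 7.02 and 6.75 in the control, 6.70, 6.48 and 6.62 at 4 h of BMH-21, 6.00, 5.94 and 5.83 at 8 h of BMH-21, and 6.68, 6.69 and 6.64 after 8 h of CX-5461. Each of these 3 treated groups lay below the control. Slc7a11 fell by 0.98 ± 0.11 (SE) at 8 h of BMH-21 (adjusted p = 2.9e-15 by limma), and by 0.74 ± 0.06 after centring. At 8 h of CX-5461 its change was -0.24 as deposited (adjusted p = 0.056) and -0.42 after centring, which was called, and the deposited value was called without control replicate 3 (-0.31). At 4 h it fell by 0.30 under BMH-21 and 0.32 under CX-5461 as deposited. Those calls were lost without control replicate 2 (-0.24 and -0.26) and, for BMH-21, without BMH-21 4 h replicate 2 (-0.24). After centring the 4 h falls were 0.14 and 0.15. The first was lost without control replicate 1 (-0.14) or 2 (-0.11) or BMH-21 4 h replicate 1 (-0.11) or 2 (-0.12), and the second without control replicate 1 (-0.15) or 2 (-0.12) or CX-5461 4 h replicate 2 (-0.15) or 3 (-0.12). Neither was called with median-ratio factors (-0.12 and -0.07) or with quantile normalization (-0.07 and 0.01). At 2 h its changes were -0.11 under BMH-21 and -0.16 under CX-5461 as deposited, not called on either scale.

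The difference between 2 genes within 1 library is not changed by a single scaling factor for that library. For Gclc minus Gclm it was -0.36, -0.38 and -0.28 on the log2 scale in the control. It was 0.37, 0.43 and 0.35 after 2 h, 1.41, 1.29 and 1.27 after 4 h, and 1.15, 1.01 and 1.14 after 8 h of BMH-21. Under CX-5461 it was 0.05, 0.07 and 0.06, then 0.70, 0.69 and 0.77, then 0.04, 0.24 and 0.14. Every treated library stood above every control library, and at each time all 3 BMH-21 libraries stood above all 3 CX-5461 libraries. The ratio of Gclc to Gclm reads thus grew 1.65-fold, 3.17-fold and 2.71-fold under BMH-21, and 1.32-fold, 2.08-fold and 1.40-fold under CX-5461. Each of these comparisons gave p = 0.1 in a two-sided exact permutation test of 3 against 3 libraries, the smallest that test can give, so none can pass 0.05. Gclc minus Slc7a11 was -0.69 ± 0.08 (SD, n = 3) in the control and, after 2, 4 and 8 h, 0.11 ± 0.08, 0.78 ± 0.16 and 0.59 ± 0.25 under BMH-21 and -0.28 ± 0.02, 0.09 ± 0.07 and -0.05 ± 0.04 under CX-5461. The exact test gave p = 0.1 there too, for each treated group against the control.

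**Figure D2:**
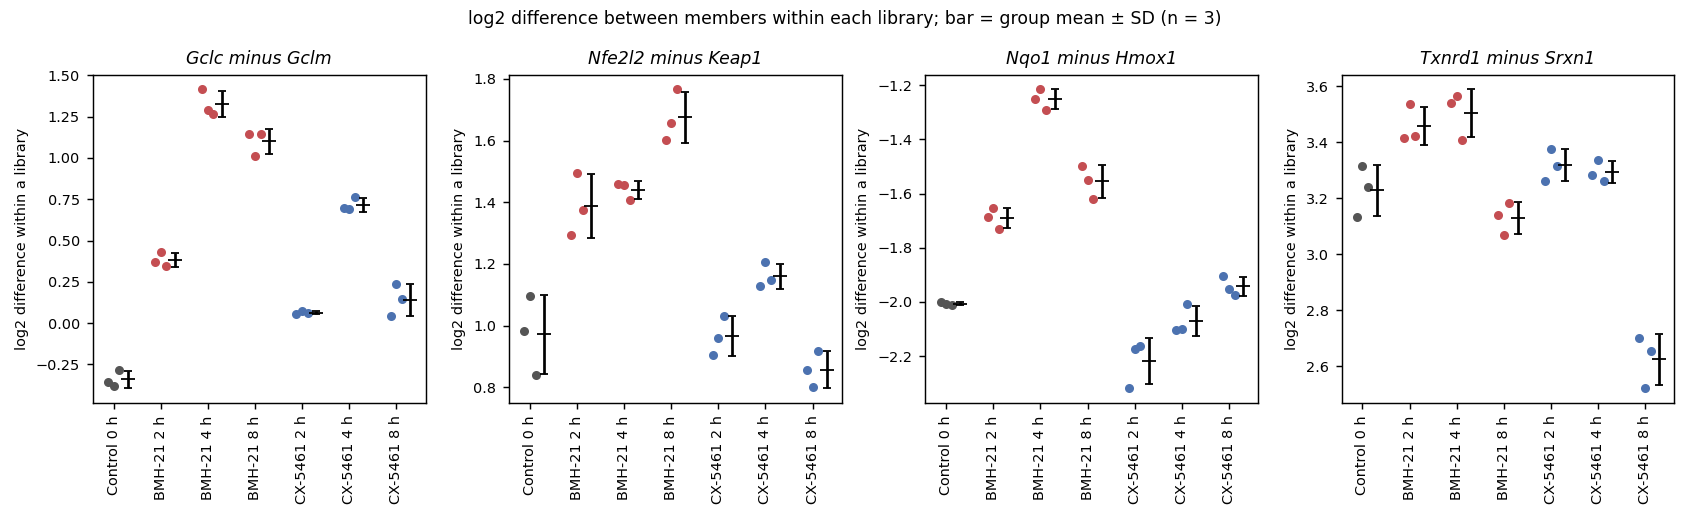
log2 difference between 2 genes within each library (y axis) for 4 pairs in the 7 groups (x axis), with points for libraries and bars for the group mean ± SD (n = 3). Gclc minus Gclm goes from -0.34 in the control to 1.32 after 4 h of BMH-21, Nfe2l2 minus Keap1 is highest after 8 h of BMH-21 (1.67), and Txnrd1 minus Srxn1 is lowest after 8 h of CX-5461 (2.63).

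Nfe2l2 minus Keap1 was 0.97 ± 0.13 (SD, n = 3) in the control. It was 1.39 ± 0.10, 1.44 ± 0.03 and 1.67 ± 0.08 at 2, 4 and 8 h of BMH-21, all libraries above the control (exact permutation p = 0.1 at each time, the smallest possible). Under CX-5461 it was 0.97 ± 0.06, 1.16 ± 0.04 and 0.86 ± 0.06. The 2 h and 8 h values overlapped the control, and at 4 h the 0.19 excess over the control became 0.12 without control replicate 3. For Nqo1 minus Hmox1, the control stood at -2.01 ± 0.004. Under BMH-21 it was -1.69, -1.25 and -1.56 at 2, 4 and 8 h, above the control without overlap. Under CX-5461 it was -2.22, -2.07 and -1.94, below all control libraries at 2 h, overlapping them at 4 h and above them at 8 h. With quantile normalization, which can change the difference between genes, the excess over the control at 8 h of BMH-21 was 0.24 in place of 0.45, and at CX-5461 8 h it turned from 0.06 to -0.16. These pairs also separated the inhibitors: at 2, 4 and 8 h all 3 BMH-21 libraries exceeded all 3 CX-5461 libraries in both pairs (exact permutation p = 0.1 each).

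Srxn1 and Txnrd1 belong to the thioredoxin system. Sulfiredoxin, from Srxn1, repairs overoxidized peroxiredoxins, and thioredoxin reductase 1, from Txnrd1, regenerates thioredoxin with NADPH. Srxn1 (chr2:152105516-152111376, plus strand) rose most after 8 h of CX-5461. Its deposited log2 values were 5.32, 5.16 and 5.09 in the control, 5.54, 5.27 and 5.32 at 4 h of BMH-21, 5.33, 5.12 and 5.32 at 8 h of BMH-21, and 5.98, 6.00 and 5.97 after 8 h of CX-5461. Only the last of these groups stood apart from the control. The rise was 0.80 ± 0.11 (SE, adjusted p = 3.5e-10 by limma), a fold of 1.74, and 0.61 ± 0.04 after centring. Under BMH-21 Srxn1 changed by 0.00, 0.18 and 0.07 after 2, 4 and 8 h as deposited, none called, and after centring it rose by 0.35 and 0.31 at 4 and 8 h. After centring it also rose at 4 h of CX-5461, by 0.21, where the deposited value was 0.04. At 2 h the centred values of 0.08 under BMH-21 and 0.09 under CX-5461 were called only without control replicate 1 (0.13 and 0.13).

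Txnrd1 (chr10:82833951-82897712, plus strand) rose and returned under BMH-21. On the deposited scale its log2 values were 8.46, 8.47 and 8.33 in the control, 8.49, 8.80 and 8.66 after 2 h, 9.08, 8.83 and 8.72 after 4 h, and 8.47, 8.19 and 8.51 after 8 h of BMH-21. The 2 h and 4 h groups lay above the control, and the 8 h group overlapped it. The 4 h rise was 0.46 ± 0.10 (SE, adjusted p = 5.5e-05 by limma), and 0.63 ± 0.04 after centring. At 2 h it was 0.23 (adjusted p = 0.11) as deposited, called without BMH-21 2 h replicate 1 (0.31), and 0.31 and called after centring. The 8 h value turned from -0.03 as deposited to a called 0.21 after centring. Under CX-5461 the changes were 0.03, 0.10 and 0.19 as deposited, none called, and 0.18, 0.28 and 0.00 after centring, of which the first 2 were called. Txnrd1 minus Srxn1 within libraries was 3.23 ± 0.09 (SD, n = 3) in the control, 3.46 and 3.50 after 2 and 4 h of BMH-21 without overlap, and 2.63 ± 0.09 after 8 h of CX-5461, below all control libraries (exact permutation p = 0.1 for each). At 8 h of BMH-21 it was 3.13, which overlapped the control. With quantile normalization the difference from the control was -0.29 in place of -0.60 at CX-5461 8 h, and 0.29 in place of -0.10 at BMH-21 8 h.

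G6pdx (chrX:74409483-74429194, minus strand) encodes glucose-6-phosphate dehydrogenase, the entry enzyme of the pentose phosphate pathway and a source of NADPH. As deposited, its log2 values were 6.99, 6.92 and 6.84 in the control, 7.39, 7.13 and 7.12 after 4 h of BMH-21, and 7.33, 7.35 and 7.26 after 8 h of CX-5461. Both treated groups lay above the control. G6pdx rose by 0.30 ± 0.11 (SE, adjusted p = 0.0097 by limma) at 4 h of BMH-21, a call lost without BMH-21 4 h replicate 1 (0.21), and by 0.39 ± 0.11 at 8 h of CX-5461 (adjusted p = 0.00088). As deposited, its other 4 changes were between -0.04 and 0.15, none called. After centring it rose in all 6 comparisons, by 0.13, 0.47 and 0.39 under BMH-21 and 0.11, 0.32 and 0.21 under CX-5461. The 2 h call of CX-5461 was lost without control replicate 2 (0.09) or CX-5461 2 h replicate 1 (0.11). The gene shares 418 exonic bases with Ikbkg on the other strand, which had 1409 to 3824 reads a library. Its intronless copy G6pd2 had 106 to 250.

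**Figure D3:**
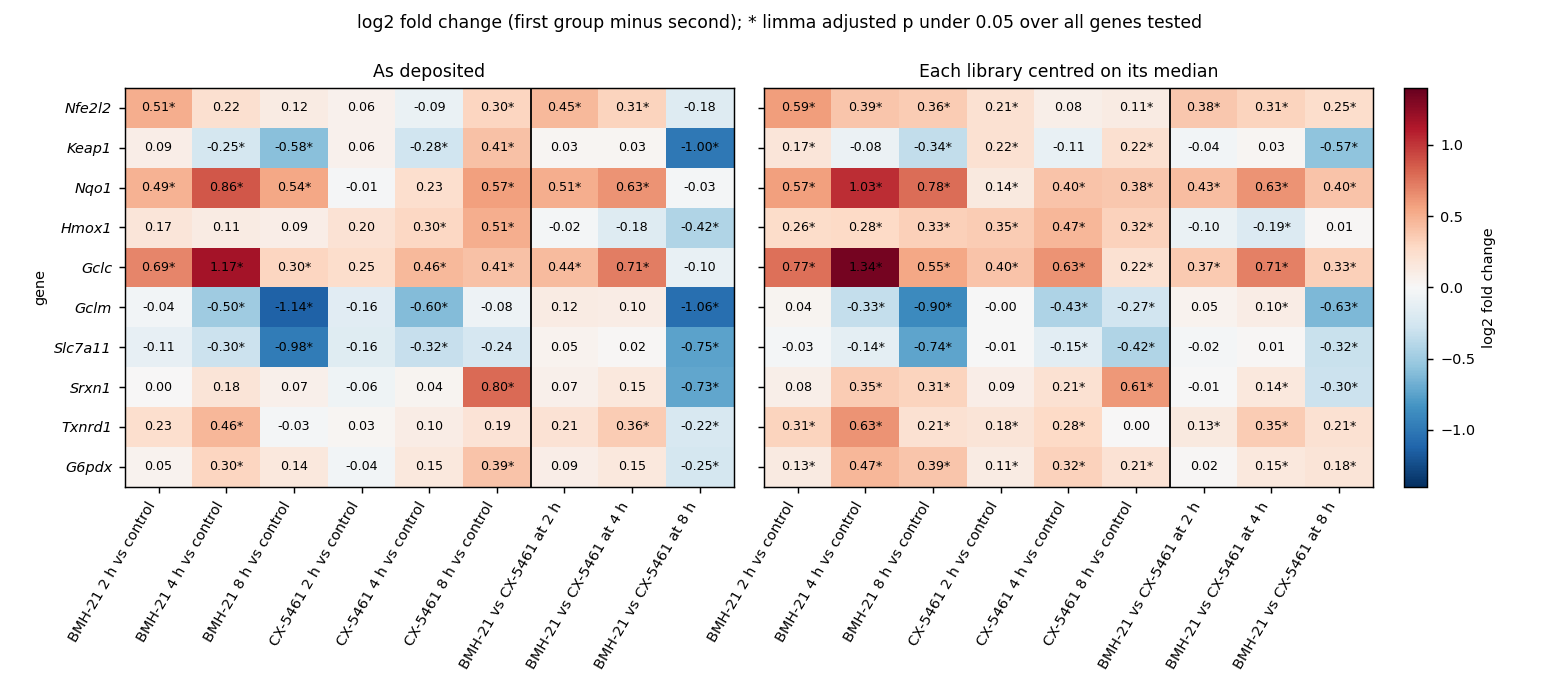
log2 fold change of the 10 genes (rows) in 6 comparisons with control and 3 of BMH-21 against CX-5461 (columns), as deposited on the left and after centring on the right, with a star where limma's adjusted p was under 0.05. Gclc and Nqo1 have the highest values at 4 h of BMH-21 (1.17 and 0.86 as deposited), and among the comparisons with control Gclm and Slc7a11 have the lowest deposited values, at 8 h of BMH-21 (-1.14 and -0.98).

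BMH-21 and CX-5461 were compared directly at the same dose and time. At 2 h, 3 of the 10 genes were higher under BMH-21 and 0 lower as deposited, against 2.47% and 1.52% of all genes, and 4 were higher and 0 lower after centring, against 7.62% and 7.69%. At 4 h, 4 were higher and 0 lower as deposited, against 9.35% and 8.49%, and 7 were higher and 1 lower after centring, against 28.3% and 18%. At 8 h, 0 were higher and 7 lower as deposited, against 12% and 67.2%, and 5 were higher and 4 lower after centring, against 31.3% and 40.4%. As deposited, the 7 of 10 at 8 h is thus near the background share. The count at 2 h fell to 1 without BMH-21 2 h replicate 2 or CX-5461 2 h replicate 2, and that at 4 h to 2 without BMH-21 4 h replicate 1 or CX-5461 4 h replicate 1 or 3.

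Nqo1, Gclc and Nfe2l2 made up the 3 genes higher under BMH-21 at 2 h. Nqo1 differed by 0.51 at 2 h and 0.63 at 4 h (adjusted p = 0.00084 and 2.8e-06 by limma), Gclc by 0.44 and 0.71 (adjusted p = 0.0058 and 1.7e-07), and Nfe2l2 by 0.45 and 0.31 (adjusted p = 0.0044 and 0.035). At 2 h the Gclc call was lost without BMH-21 2 h replicate 2 (0.37) or CX-5461 2 h replicate 2 (0.40), and so was that of Nfe2l2 (0.38 and 0.40). At 4 h the Nfe2l2 call was lost without BMH-21 4 h replicate 1 (0.22) or CX-5461 4 h replicate 1 (0.24) or 3 (0.29), and on fitting only the 2 groups (adjusted p = 0.12). Txnrd1 was the fourth gene at 4 h, at 0.36 (adjusted p = 0.0081), lost without BMH-21 4 h replicate 1 (0.26) or CX-5461 4 h replicate 1 (0.30) or 3 (0.33). After centring, the differences at 4 h were 0.63 for Nqo1, 0.71 for Gclc, 0.31 for Nfe2l2 and 0.35 for Txnrd1. Those at 2 h were 0.43, 0.37, 0.38 and 0.13, of which the last was lost without BMH-21 2 h replicate 2 (0.11) or CX-5461 2 h replicate 1 (0.13) or 3 (0.13).

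At 8 h, 4 genes were lower under BMH-21 than under CX-5461 on both scales. They were Keap1 (-0.997 as deposited and -0.57 after centring), Gclm (-1.06 and -0.63), Slc7a11 (-0.75 and -0.32) and Srxn1 (-0.73 and -0.30). Other genes changed sides with the scale: Txnrd1 went from -0.22 to 0.21, G6pdx from -0.25 to 0.18 and Hmox1 from -0.42 to 0.01. The deposited calls of Txnrd1 and G6pdx at 8 h were lost without BMH-21 8 h replicate 2 (-0.12 and -0.18) and CX-5461 8 h replicate 1 (-0.19 and -0.24), for Txnrd1 without CX-5461 8 h replicate 3 (-0.21) and for G6pdx without replicate 2 of that group (-0.23). Nqo1, Gclc and Nfe2l2 were not called as deposited at 8 h, with 95% intervals of -0.25 to 0.18, -0.32 to 0.12 and -0.40 to 0.04, and were higher under BMH-21 after centring, by 0.40, 0.33 and 0.25. Hmox1 was lower under BMH-21 at 4 h after centring (-0.19). The small centred difference of Gclm at 4 h (0.10) was lost without BMH-21 4 h replicate 1 (0.10) or 2 (0.09) or CX-5461 4 h replicate 1 (0.09) or 3 (0.07). The centred differences of Srxn1 and G6pdx at 4 h were 0.14 and 0.15.

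Over the 21 libraries, centred levels of Gclc and Txnrd1 ran together (Pearson r = 0.98, Spearman rho = 0.95), and Nqo1 ran with G6pdx (0.86 and 0.85) and Gclc (0.85 and 0.82). Gclm and Slc7a11 formed another pair (0.84 and 0.76), and Gclm ran against G6pdx (-0.75 and -0.75). Gclc and Gclm, the subunits of 1 enzyme, had r = -0.20 and rho = -0.14. Nfe2l2 followed Gclc (0.67 and 0.76) and Nqo1 (0.66 and 0.72) and showed r = -0.04 with Keap1. These values describe libraries that share 7 groups and a common scaling step, so they are not independent points.

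Of 13683 other genes searched with a mean log2 value of at least 0, those whose centred levels were most like Nfe2l2 over the 21 libraries were Cyp1b1 (r = 0.93), Cyp1a1 (r = 0.93) and Trim13 (r = 0.92). Their Spearman rho with Nfe2l2 was 0.85, 0.84 and 0.86, in that order. Cyp1a1 and Cyp1b1 encode cytochromes P450 and are the classic targets of AHR. Cyp1a1 had 30 to 57 reads in the control libraries, 7383 to 8456 after 2 h of BMH-21 and 51 to 64 after 2 h of CX-5461. As deposited, it rose by 7.50, 6.19 and 5.31 under BMH-21 at 2, 4 and 8 h, and under CX-5461 its values were 0.26, 0.16 and 0.63, of which the last was called. Cyp1b1 rose by 5.70, 4.58 and 4.51 under BMH-21 and by 0.70, 1.07 and 1.48 under CX-5461. Of the 7 AHR genes listed, 6 rose and 0 fell after 2 h of BMH-21 as deposited: Ahr, Ahrr, Cyp1a1, Cyp1a2, Cyp1b1 and Tiparp, with Ahrr, a repressor of AHR, at 3.46 and Tiparp at 1.28. Over all genes, 8.48% rose and 11.2% fell in that comparison. The median of the 7 was 1.71, against -0.07 over all genes. Under CX-5461 for 2 h, Cyp1b1 rose, Arnt (-0.28) and Tiparp (-0.59) fell, and the median was 0.21 against -0.18. Of all genes, 7.45% rose there and 20.5% fell as deposited. In the direct comparison at 2 h, 5 of the 7 were higher under BMH-21, all but Ahr and Arnt, against 2.47% of all genes as deposited. The changes of Nfe2l2 are far smaller than those of Cyp1a1, as the plot of both by library shows.

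**Figure D4:**
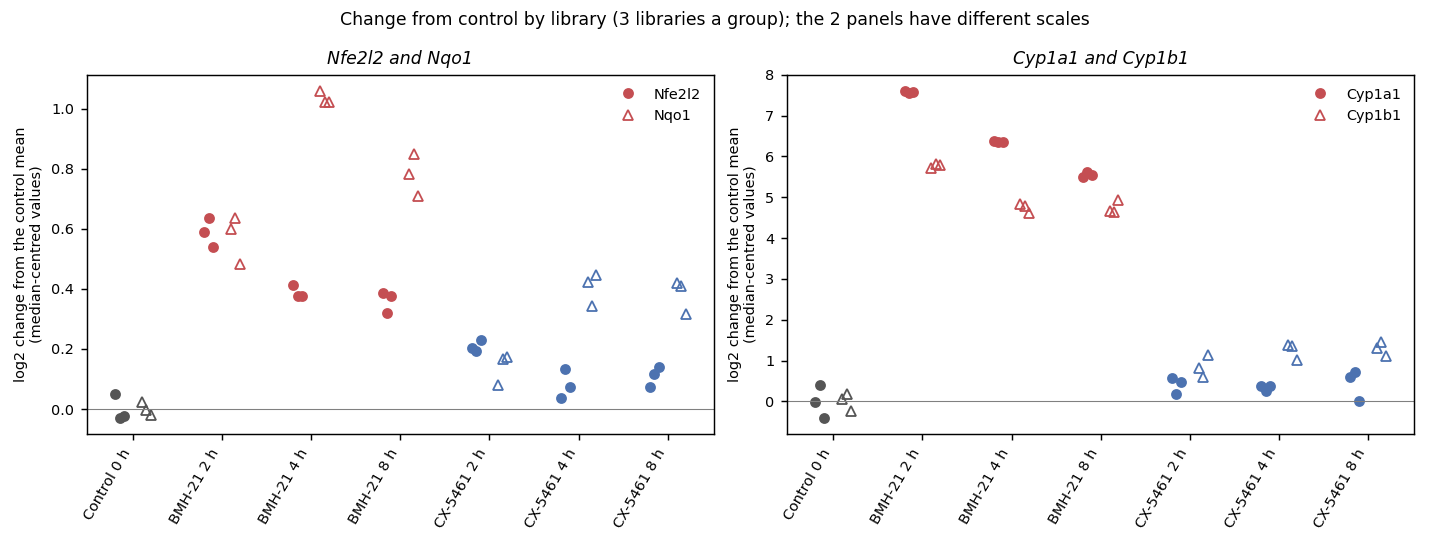
Change from the control mean in centred log2 values (y axis) for Nfe2l2 and Nqo1 on the left and Cyp1a1 and Cyp1b1 on the right, by library in the 7 groups (x axis). Nfe2l2 is highest after 2 h of BMH-21 (mean 0.59) and so is Cyp1a1 (mean 7.58), while Nqo1 is highest after 4 h of BMH-21 (mean 1.03), and the scales of the panels differ.

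For Nqo1 the most similar genes were R74862 (r = 0.96, rho = 0.97), Srd5a1 (r = 0.96, rho = 0.93) and Fam117a (r = 0.96, rho = 0.94). R74862 rose by 2.04 after 4 h of BMH-21 and by 0.86 after 4 h of CX-5461 on the centred scale, and Srd5a1, a steroid 5-alpha-reductase, by 0.87 and 0.41. For Hmox1 they were Zfp456 (r = 0.92, rho = 0.77), Kbtbd13 (r = 0.91, rho = 0.87) and Sowahb (r = 0.91, rho = 0.81). Sowahb rose by 2.22 and 2.53 in the same comparisons. For Slc7a11 they were Tcea3, Cct3 and Ranbp1 (r = 0.98 each, with rho of 0.94, 0.95 and 0.94). Cct3, a subunit of the chaperonin that folds actin and tubulin, fell by 1.14 after 8 h of BMH-21 and by 0.70 after 8 h of CX-5461 on the centred scale, next to 0.74 and 0.42 for Slc7a11.

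Slc7a11 is also a target of ATF4, the factor of the amino acid response. Of 8 ATF4 genes listed, Atf4 itself fell at every time of BMH-21, by 1.00, 1.70 and 1.16 as deposited, and by 0.81, 1.19 and 0.52 under CX-5461. Chac1, which degrades glutathione, fell by 1.19, 2.05 and 2.02 under BMH-21 and by 1.13, 1.29 and 1.12 under CX-5461. After 8 h of BMH-21, 3 of the 8 rose (Ddit3 by 1.10, Trib3 by 0.44 and Sesn2 by 0.25) and 5 fell, as deposited and after centring: Atf4, Chac1, Asns (-1.57), Psat1 (-0.97) and Slc3a2 (-0.40). Over all genes, 24.5% rose and 56.9% fell as deposited, and 34.2% and 49.6% after centring, so these counts were near the background. Slc3a2 is the partner chain of Slc7a11 in the cystine transporter, and Asns makes asparagine. The median of the 8 was -0.68 against -0.40 over all genes. After 8 h of CX-5461, 3 rose (Trib3, Ddit3 and Sesn2) and 4 fell as deposited (Atf4, Asns, Chac1 and Psat1), against 35.1% and 14.3% of all genes. The median of the 8 was -0.22 there, against 0.11.

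The AP-1 genes and Atf3, whose products bind the TGANTCA core or related letters, all rose, in every comparison with control and on both scales. The share of all genes that rose was between 7.45% and 35.1% as deposited and between 16.2% and 34.2% after centring. Of the 5, Fosl1 rose by 5.16 and 3.66 after 8 h of BMH-21 and CX-5461 as deposited, Atf3 by 4.13 and 2.33, Jun by 2.77 and 2.04 and Fos by 2.54 and 1.65. At 8 h all 5 were higher under BMH-21 than under CX-5461, against 12% of all genes as deposited and 31.3% after centring.

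Of the 12 regulators and partners of NRF2 that were listed, Mafk, which encodes a small MAF partner, rose in all 6 comparisons. Its mean log2 value was 3.72 ± 0.11 (SD, n = 3) in the control and 4.78 ± 0.07, 5.41 ± 0.08 and 5.27 ± 0.18 after 2, 4 and 8 h of BMH-21. Under CX-5461 it was 4.72 ± 0.12, 4.91 ± 0.07 and 4.56 ± 0.19. The partner Mafg fell under BMH-21, by 0.35, 0.87 and 1.06 as deposited. Cul3, the scaffold of the ligase that removes NRF2, fell by 0.59 and 1.13 at 4 and 8 h of BMH-21 and by 0.80 and 0.46 after the same times of CX-5461. Bach1, a repressor that competes with NRF2 at its sites, fell after 4 h (by 0.85 under BMH-21 and 0.42 under CX-5461) and rose after 8 h (by 0.51 and 0.81), and Bach2 rose after 8 h by 0.94 and 1.13. After 8 h of BMH-21, 3 of the 12 rose (Mafk, Bach1 and Bach2) and 6 fell as deposited, near the background of 24.5% and 56.9%, with a median of -0.41 against -0.40 over all genes. The counts were the same after centring, against 34.2% and 49.6%.

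Another 38 genes were listed as NRF2 targets, of which 33 were tested and Gsta1, Gsta2, Ugt1a6a, Ugt1a6b and Osgin1 were below the filter. After 4 h of BMH-21, 6 rose and 8 fell as deposited, against 22.1% and 44.9% of all genes, and 16 rose and 7 fell after centring, against 33.4% and 39.9%. At 8 h of BMH-21, 7 rose and 20 fell as deposited, against 24.5% and 56.9%, and 12 rose and 15 fell after centring, against 34.2% and 49.6%, so that the 8 h counts were near the background. At 8 h of CX-5461, 9 rose and 3 fell as deposited, against 35.1% and 14.3%, and 8 rose and 13 fell after centring, against 30.7% and 42.2%. Their median was -0.35 as deposited after 8 h of BMH-21, against -0.40 over all genes, and 0.08 against 0.11 after 8 h of CX-5461. Ephx1, a microsomal epoxide hydrolase, rose with both inhibitors alike, by 0.57, 2.04 and 2.64 under BMH-21 and 0.60, 2.02 and 2.47 under CX-5461. The difference between inhibitors in Ephx1 was -0.03, 0.02 and 0.17 as deposited, none called, and 0.60 and called at 8 h after centring. Abcc2, an exporter of conjugates, rose by 1.26 and 1.77 at 4 and 8 h of BMH-21 and by 1.06 and 1.05 under CX-5461. Slc40a1, the iron exporter ferroportin, and Blvra, a biliverdin reductase, fell by 1.70 and 1.40 after 8 h of BMH-21, with 0.08 and -0.04 after 8 h of CX-5461, not called. The 3 that fell after 8 h of CX-5461 as deposited were Gsta3 (-0.75), Prdx6 (-0.48) and Akr1b8 (-0.36).

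**Figure D5:**
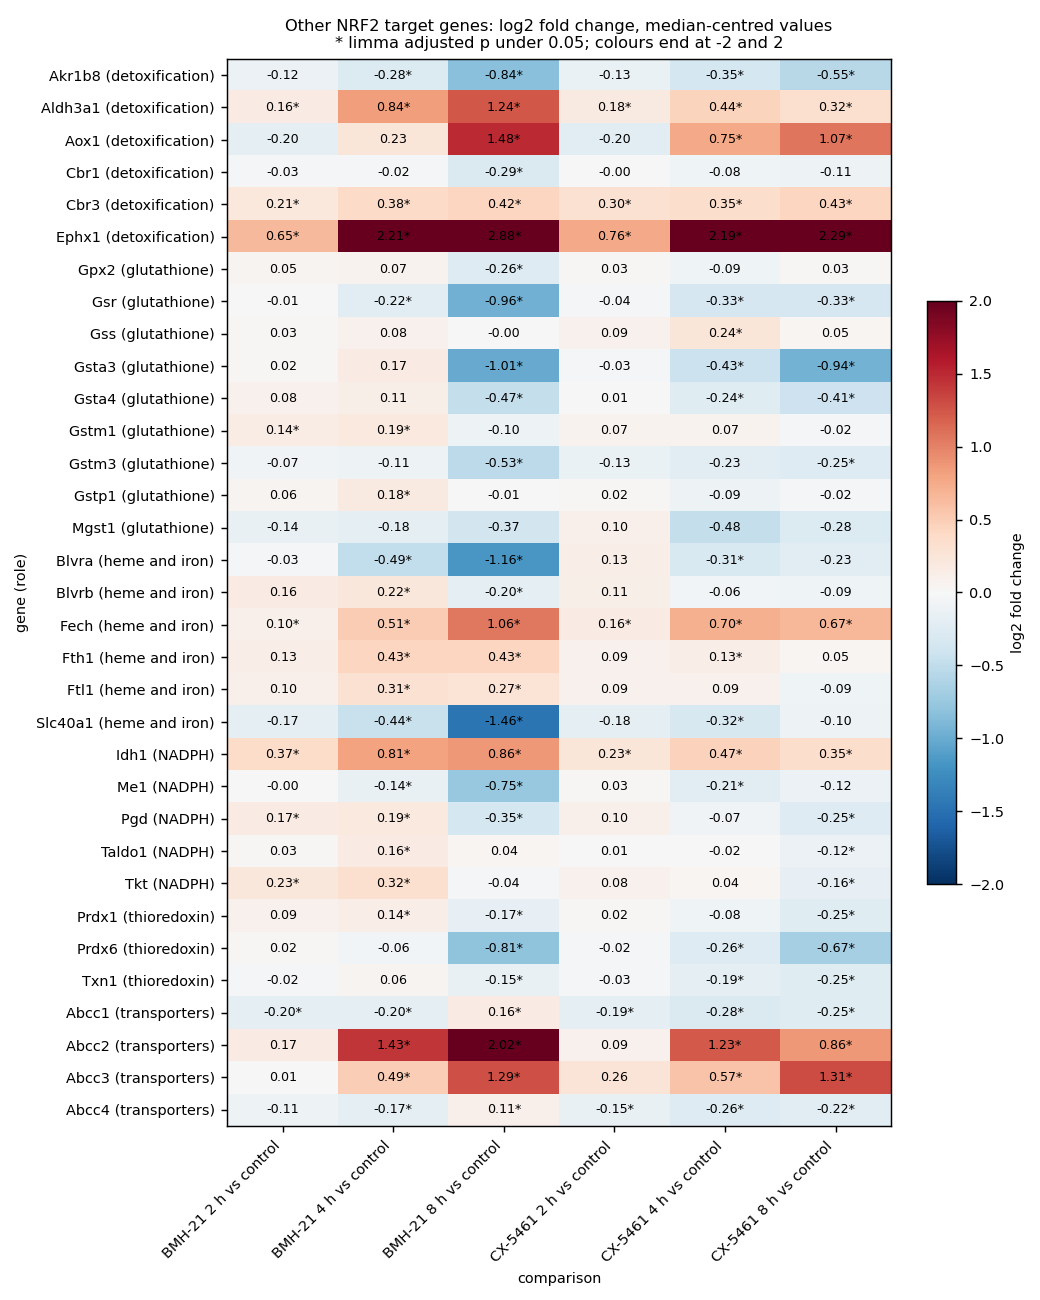
log2 fold change of the 33 other NRF2 target genes tested (rows, with their role) in the 6 comparisons with control (columns) on the centred scale, with a star where limma's adjusted p was under 0.05. Ephx1 (2.88), Abcc2 (2.02) and Aox1 (1.48) have the highest values after 8 h of BMH-21 and Slc40a1 (-1.46) and Blvra (-1.16) the lowest.

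Of the 9 tested genes with a glutathione role, 9 fell after 8 h of BMH-21 as deposited, against 56.9% of all genes. After centring 5 of the 9 fell, near the background of 49.6%. Gsr of this list, which reduces oxidized glutathione, fell by 1.20 as deposited and 0.96 after centring. Of the 5 NADPH genes, 1 rose and 3 fell at 8 h of BMH-21 as deposited, and 1 rose and 2 fell after centring. Over all genes, 24.5% rose and 56.9% fell as deposited, and 34.2% and 49.6% after centring. At 4 h, 1 rose and 1 fell as deposited, against 22.1% and 44.9%, and 4 rose and 1 fell after centring, against 33.4% and 39.9%. Idh1 of this list rose by 0.64 and 0.62 at 4 and 8 h of BMH-21 and by 0.29 and 0.54 under CX-5461, next to G6pdx at 0.30, 0.14, 0.15 and 0.39. Me1, another NADPH source, fell by 0.31 and 1.00 under BMH-21. Prdx1 and Txn1, the substrates of Srxn1 and Txnrd1, fell by 0.41 and 0.39 after 8 h of BMH-21 and by 0.17 and 0.15 after centring. These falls were near the medians of all genes tested in that comparison, -0.40 as deposited and -0.16 after centring.

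Among 14 antioxidant enzymes that are not usually listed as NRF2 targets, 1 rose (Txnrd2, by 0.65) and 13 fell after 8 h of BMH-21 as deposited, against 24.5% and 56.9% of all genes, with a median of -0.63 against -0.40 over all genes. After centring 1 rose and 11 fell, against 34.2% and 49.6%, with Gpx1 and Glrx2 not called. The largest falls in the deposited values were in Txnrd3 (-1.32), Prdx4 (-0.89), Prdx3 (-0.84) and Glrx (-0.83), which are a thioredoxin-glutathione reductase, peroxiredoxins of the endoplasmic reticulum and of mitochondria, and a glutaredoxin. At 8 h of CX-5461, Txnrd2 rose and Sod2, Prdx4 and Txnrd3 fell as deposited, and 10 of the 14 fell after centring, against 42.2% of all genes.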

How the data were processed

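RNA-seq of poly(A) RNA was made with a directional kit, per the labels' protocols. The submitters' processing notes name Trim Galore 0.5.0, TopHat2 2.1.1, R 4.0.5, DESeq2 1.30.1, edgeR 3.32.1, limma 3.46.0 and mm10, with no role or order. The counting program, its strand setting, the annotation and the filters are not given in the sources used here. The authors deposited 1 table of log2 expression values, voom-normalized by its name. With an offset of 0.5 reads, every value gave whole reads to within 1.7e-08. The origin of the scaling factors is not given in the sources used here, and a fold of the low genes is understated by the offset. The labels' protocols name no molecular identifiers, so PCR copies may be among the reads.

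Groups came from sample titles, and 0 columns were unmapped. Deposited log2 values were fitted with limma 3.58.1 (R 4.3.3), with 1 mean per group over all 21 libraries, a variance trend, two-sided tests and Benjamini-Hochberg adjustment over genes with a log2 value above 0 in at least 3 libraries. The fit was also run on simulated data, with noise drawn separately for each gene and library. That simulation held no shift shared by all genes of a library, so it cannot tell how such shifts affect the p-values. The variance prior carried 111.5 degrees of freedom as deposited and 8.5 after centring, beside 14 from the replicates. Centring subtracted each library's median over genes with a mean of at least 0. No count model was the main test, since the unit is log2. Other alternatives were quantile normalization, no filter, no variance trend, a replicate block, fits restricted to a pair of groups, and leaving out each library. Whole reads were used for depth, median-ratio factors, an offset of 5 reads and voom weights.

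The 10 genes, the lists, the tests and the alternatives were chosen with earlier results of these data known. Outside the 10, genes are named by a rule: up to 4 a list with the largest change among those called after 8 h of BMH-21, any behind a count of 5 or fewer, and the 3 genes most like each of 4 members. Further list genes (Idh1, Me1, Gsr, Prdx1, Txn1, Aox1, Gpx1) were named after their values were seen. Differences between 2 genes within a library, and the AP-1 letters, were added after the data had been seen. Replicates differed by more than sampling noise (chi-square per degree of freedom 2.65 to 27.3), so no library was counted as a duplicate of another. Coordinates are from GENCODE M21, and figures were drawn with matplotlib 3.10.9.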

Additional observations from a re-analysis of the deposited data

Results flagged for a closer look

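For 14 of the 30 values that compare the inhibitors in the 10 genes, the difference between BMH-21 and CX-5461 at the same time was itself called by limma on the deposited scale. Each is a log2 difference, BMH-21 minus CX-5461. At 2 h these were Nqo1 (0.51), Nfe2l2 (0.45) and Gclc (0.44). At 4 h they were Gclc (0.71), Nqo1 (0.63), Txnrd1 (0.36) and Nfe2l2 (0.31). At 8 h they were Gclm (-1.06), Keap1 (-0.997), Slc7a11 (-0.75), Srxn1 (-0.73), Hmox1 (-0.42), G6pdx (-0.25) and Txnrd1 (-0.22). Over all genes, 2.47% were higher and 1.52% lower under BMH-21 at 2 h, and 9.35% and 8.49% at 4 h. At 8 h 12% were higher and 67.2% lower, so the 7 of 10 lower there were near that share.

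After centring, Hmox1 at 8 h was no longer called (0.01, adjusted p = 0.80), and Txnrd1 (0.21) and G6pdx (0.18) were called the other way. The 11 others kept their sign and their call, with values from 0.31 to 0.71 at 2 and 4 h and from -0.63 to -0.30 at 8 h.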

How the results depend on the processing

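The 90 member values were each recomputed under the alternatives, 1350 in all. In 1129 the direction and the side of the threshold stayed, 51 lost the call, 83 gained it and 87 changed sign, and the cause was not tested. With median-centred libraries 7 members were called at 2 h of BMH-21, 10 at 8 h, 7 and 8 at 2 and 4 h of CX-5461 and 8 between inhibitors at 4 h. Median-ratio factors gave 7, 10, 8 and 8 for the first 4 of these, and quantile normalization 7, 10, 7 and 8. After centring, the shares of all genes called higher and lower were 19% and 16.8% at 2 h and 34.2% and 49.6% at 8 h of BMH-21. They were 16.2% and 16.7% at 2 h and 29.2% and 44.1% at 4 h of CX-5461. Between inhibitors at 4 h they were 28.3% and 18%. Such shares are not given here for median-ratio factors, quantile normalization or fits without 1 library. Leaving out 1 library gave 1 to 3 called between inhibitors at 2 h and 2 to 4 at 4 h. At 4 h of BMH-21 against control, leaving out 1 library gave 5 to 6 as deposited, and all libraries gave 7. Signs turned under centring, median-ratio factors and quantile normalization, in that order, for BMH-21 minus CX-5461 at 8 h in G6pdx (0.18, 0.22, 0.21), Gclc (0.33, 0.37, 0.36), Hmox1 (0.011, 0.053, 0.032), Nfe2l2 (0.25, 0.29, 0.26), Nqo1 (0.40, 0.44, 0.43) and Txnrd1 (0.21, 0.25, 0.27). At 2 h they turned in Keap1 (-0.043, -0.070, -0.060), Slc7a11 (-0.023, -0.049, -0.056) and Srxn1 (-0.0054, -0.032, -0.015). Against control they turned at 2 h of CX-5461 in G6pdx (0.11, 0.14, 0.13), Nqo1 (0.14, 0.17, 0.14) and Srxn1 (0.090, 0.12, 0.090), at 4 h in Nfe2l2 (0.081, 0.16, 0.17), and in Gclm at 2 h (0.043, 0.046, 0.043) and Txnrd1 at 8 h (0.21, 0.33, 0.67) of BMH-21. Under the last 2 settings only, they turned for G6pdx between inhibitors at 2 h (-0.0085, -0.019), Slc7a11 at 4 h (-0.052, -0.076), and at 2 h of CX-5461 for Gclm (0.026, 0.019) and Slc7a11 (0.019, 0.017). Median-ratio factors also turned Keap1 between inhibitors at 4 h (-0.036). Quantile normalization also turned Slc7a11 at 4 h of CX-5461 (0.0094), Nqo1 minus Hmox1 at 8 h of CX-5461 (-0.16) and Txnrd1 minus Srxn1 at 8 h of BMH-21 (0.29). Leaving out 1 library turned values near 0. For BMH-21 against control the ranges were -0.0073 to 0.11 (G6pdx, 2 h), -0.10 to 0.022 (Gclm, 2 h), -0.046 to 0.071 (Srxn1, 2 h) and -0.087 to 0.072 (Txnrd1, 8 h). For CX-5461 they were -0.033 to 0.11 (Keap1, 2 h), -0.011 to 0.11 (Nfe2l2, 2 h), -0.079 to 0.024 (Nqo1, 2 h), -0.15 to 0.0033 (Srxn1, 2 h), -0.034 to 0.056 (Txnrd1, 2 h) and -0.026 to 0.10 (Srxn1, 4 h). Between inhibitors they were -0.090 to 0.062 (Hmox1, 2 h), -0.020 to 0.12 (Keap1, 2 h), -0.0061 to 0.10 (Slc7a11, 2 h), -0.049 to 0.11 (Keap1, 4 h), -0.035 to 0.095 (Slc7a11, 4 h), -0.17 to 0.023 (Gclc, 8 h) and -0.068 to 0.012 (Nqo1, 8 h).

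Replicate numbers did not pair the samples. Correlations were taken between what was left of each centred library after subtracting each gene's group mean. Between same-numbered libraries of different groups they ran from -0.32 to 0.17 (median 0.0092). Of these 63 pairs, 7 exceeded 0.1, and 4 of 21 libraries correlated best, on average, with their own number. With the replicate block the members called went from 7 to 6 at 4 h of BMH-21 (Keap1, adjusted p = 0.0505 by limma), from 7 to 6 between inhibitors at 8 h (Txnrd1, adjusted p = 0.0518) and, after centring, from 8 to 7 between inhibitors at 4 h. Of all 14666 genes tested, 9826 were called at 4 h of BMH-21 as deposited, and 9680 with the block. Between inhibitors at 8 h these numbers were 11615 and 11540.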

Other observations

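Genes of the p53 response, another stress pathway of these cells, were listed for comparison. After 8 h of BMH-21, 3 of the 6 rose and 1 fell as deposited, against 24.5% and 56.9% of all genes. The median of the 6 was 1.07, against -0.40 over all genes. Mdm2, the ligase that removes p53, rose by 2.71 and 1.75 after 8 h of BMH-21 and CX-5461, Cdkn1a, a cell cycle inhibitor, by 2.46 and 1.87, and Ccng1 by 2.00 and 1.47. Tigar, a p53 target that favours NADPH supply, fell by 1.20 after 8 h of BMH-21.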
